A study of Sus scrofa with 16 samples.

Results

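The genes described here are 7 genes that mark B cells, namely CD79A, CD79B, MS4A1, CD22, BLK, PAX5 and EBF1, out of 19560 protein-coding genes (PCGs) annotated on the chromosomes of the pig genome. They were chosen by name, and every ATAC-seq peak that overlapped a promoter (2.2 kb upstream to 500 bp downstream of a transcription start site, TSS) or the gene body with 5 kb either side was assigned to its gene. These windows held 308 of the 798988 peaks in the deposited lists, which merged into 138 of the 190033 accessible regions found in the windows of all PCGs. ATAC-seq marks open chromatin through the insertion of sequencing adaptors by a transposase.

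The study profiled spleen, liver, kidney, lung, heart and skeletal muscle from pigs at birth (day 0 in the labels, described by the study as aged 1 day), together with suckling liver from day 28 and adult liver from day 180. All animals were female crossbred domestic pigs without any treatment, described in the methods as full-sib Berkshire × Tibetan hybrids. Each of the 8 groups had 2 biological replicates, and the newborn tissues came from the same 2 pigs. The deposited file of a group is a merged list of the peaks found in both replicates, so the presence of a peak is known once per group. Presence was not tested across replicates, and all comparisons are descriptions read against the same share over all PCGs. In bulk tissue, fewer cells of a type and less open chromatin per cell cannot be told apart.

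CD79A and CD79B encode the signalling chains of the B cell receptor, the complex through which a B cell senses antigen. MS4A1 (CD20) and CD22 are surface proteins of B cells, of which CD22 is an inhibitory coreceptor that binds sialic acid, and BLK is a SRC-family kinase that acts downstream of the receptor. EBF1 and PAX5 are transcription factors that specify and maintain the B cell programme, and the spleen houses mature B cells in its follicles whereas the liver is a site of blood formation before birth. EBF1 is also expressed in stromal and fat cells, and PAX5 has roles in the developing nervous system.

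The 6 stretches of 300 bases printed here show the kinds of sequence on which the results turn. They are read 5′ to 3′ on the strand of the gene from Sscrofa11.1, lie outside annotated exons, and carry capitals where a searched motif matched on either strand. The motifs were an EBF palindrome (TCCCNNGGG), the POU octamer (ATGCAAAT), an SPI1 site (GAGGAAGT), an E-box (CAGGTG), a RUNX site (TGTGGTT), an ETS-IRF composite (GAANNGAAA), a kappaB site (GGGANTTTC) and a GATA site (AGATAAG). The stretches directly upstream of the CD79A (chr6:49999295-49999594), CD79B (chr12:15052666-15052965) and MS4A1 (chr2:11229061-11229360) start sites are examples with a spleen peak over the start site. Spleen peaks also covered a start site of CD22, PAX5 and EBF1, whose upstream stretches are not printed.
CD79A: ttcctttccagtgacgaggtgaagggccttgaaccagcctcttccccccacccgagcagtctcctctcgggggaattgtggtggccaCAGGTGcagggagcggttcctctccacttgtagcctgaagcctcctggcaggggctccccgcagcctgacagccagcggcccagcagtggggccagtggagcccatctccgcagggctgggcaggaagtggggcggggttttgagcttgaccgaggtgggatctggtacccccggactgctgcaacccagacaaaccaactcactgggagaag
CD79B: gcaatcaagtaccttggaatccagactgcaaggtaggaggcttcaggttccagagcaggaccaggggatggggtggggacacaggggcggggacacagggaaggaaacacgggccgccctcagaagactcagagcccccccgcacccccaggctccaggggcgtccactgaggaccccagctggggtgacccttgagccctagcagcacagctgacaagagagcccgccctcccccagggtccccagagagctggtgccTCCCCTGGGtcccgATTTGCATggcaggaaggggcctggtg
MS4A1: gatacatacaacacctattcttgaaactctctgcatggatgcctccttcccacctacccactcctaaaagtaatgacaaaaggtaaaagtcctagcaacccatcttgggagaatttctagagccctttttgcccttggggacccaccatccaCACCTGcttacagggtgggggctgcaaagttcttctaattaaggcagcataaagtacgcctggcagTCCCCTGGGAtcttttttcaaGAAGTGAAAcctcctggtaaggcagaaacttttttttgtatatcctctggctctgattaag
The other stretches are centred on peak summits. The CD22 stretch (chr6:44834614-44834913) lies just past the 3′ end of the gene, and the spleen stretch of PAX5 (chr1:237746468-237746767) lies in an intron. These are the only regions at the 7 genes that had a spleen peak at an irreproducible discovery rate (IDR) of 0.05 or lower and no peak in the other newborn lists. The liver stretch of PAX5 (chr1:237713244-237713543) lies in an intron region that was called in the liver lists alone.
CD22: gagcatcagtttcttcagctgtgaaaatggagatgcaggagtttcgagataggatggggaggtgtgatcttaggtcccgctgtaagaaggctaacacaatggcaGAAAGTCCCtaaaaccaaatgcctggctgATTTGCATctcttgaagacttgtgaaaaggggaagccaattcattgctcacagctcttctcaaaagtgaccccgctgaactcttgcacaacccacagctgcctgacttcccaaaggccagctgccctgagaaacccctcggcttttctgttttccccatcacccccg
PAX5 spleen: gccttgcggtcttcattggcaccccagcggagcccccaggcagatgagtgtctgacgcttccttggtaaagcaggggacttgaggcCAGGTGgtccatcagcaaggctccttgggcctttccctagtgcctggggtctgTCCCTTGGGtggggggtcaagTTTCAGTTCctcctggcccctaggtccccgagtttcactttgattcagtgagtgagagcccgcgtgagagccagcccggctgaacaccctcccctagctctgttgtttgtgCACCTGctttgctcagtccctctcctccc
PAX5 liver: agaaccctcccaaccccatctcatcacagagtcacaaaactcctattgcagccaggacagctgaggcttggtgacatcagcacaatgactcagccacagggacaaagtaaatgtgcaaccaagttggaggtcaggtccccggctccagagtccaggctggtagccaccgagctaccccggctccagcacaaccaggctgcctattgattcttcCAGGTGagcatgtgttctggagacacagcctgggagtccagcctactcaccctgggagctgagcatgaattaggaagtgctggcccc

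Upstream of CD79B, an EBF match began 41 bases and an octamer (ATTTGCAT) 27 bases before the start site, and upstream of MS4A1 an EBF match began 82 bases and an ETS-IRF match 61 bases before it. Over the 300 bases upstream of the outermost start site of 19557 PCGs, 8.71% held the EBF motif, 1.49% the octamer and 7.8% the ETS-IRF motif. The E-box, present upstream of CD79A, MS4A1 and the outermost BLK start site, was found in 22.7% of these stretches. Among the outermost start sites of the members, only CD79B and MS4A1 held the EBF motif and only CD79B the octamer. No searched motif matched upstream of the outermost CD22, PAX5 and EBF1 start sites. The promoters also differed in base composition. The observed-to-expected ratio of CpG was 0.0655 upstream of MS4A1, 0.139 upstream of the outermost BLK start site, 0.215 at CD79B and 0.322 at CD79A, beside a median of 0.603 over all PCGs, whereas it was 0.787 at the outermost PAX5 and 0.782 at the outermost EBF1 start site. CD22, at 0.556, lay close to the median. The genes with CpG-poor promoters were thus the receptor chains, MS4A1 and BLK, and those with CpG-rich promoters were the transcription factors.

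In newborn spleen, all 7 genes had a promoter peak, beside 68.9% of all PCGs. The number was 5 in newborn liver (73.7% of PCGs), 6 in suckling liver (75% of PCGs), 5 in adult liver (69.8% of PCGs) and 5 in newborn kidney (75.2% of PCGs). Newborn lung, heart and skeletal muscle each had a promoter peak at 3 of the genes, beside 70.6%, 68% and 61.5% of PCGs. Spleen was therefore the one list in which every member had a promoter peak, although most PCGs had one in every list. With 7 genes, the 95% Wilson interval of the spleen share (64.6 to 100, counting error only) contained the 68.9% of PCGs. The interval of every other list also contained its PCG share. A promoter peak that spleen shared with none of the other 5 newborn lists was found at CD79A, MS4A1, BLK and PAX5, 4 of 7 members beside 4.4% of PCGs. The same 4 genes had a spleen promoter peak without overlap in any of the other 7 lists, beside 3.21% of PCGs.

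Most of these spleen promoter peaks were weak. Only PAX5 and EBF1 had a spleen promoter peak at an IDR of 0.05 or lower, 2 of 7 members beside 43% of PCGs, and neither of those peaks was confined to spleen. The IDR is the expected share of irreproducible peaks among those ranked at least as consistently between replicates. Strength is given below as the −log10 p of a peak in replicates 1 and 2 and as its place in its own list, ranked by the smaller value, because −log10 p depends on library depth and cannot be set side by side between lists. The lists themselves do not give read depth.

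**Figure D1:**
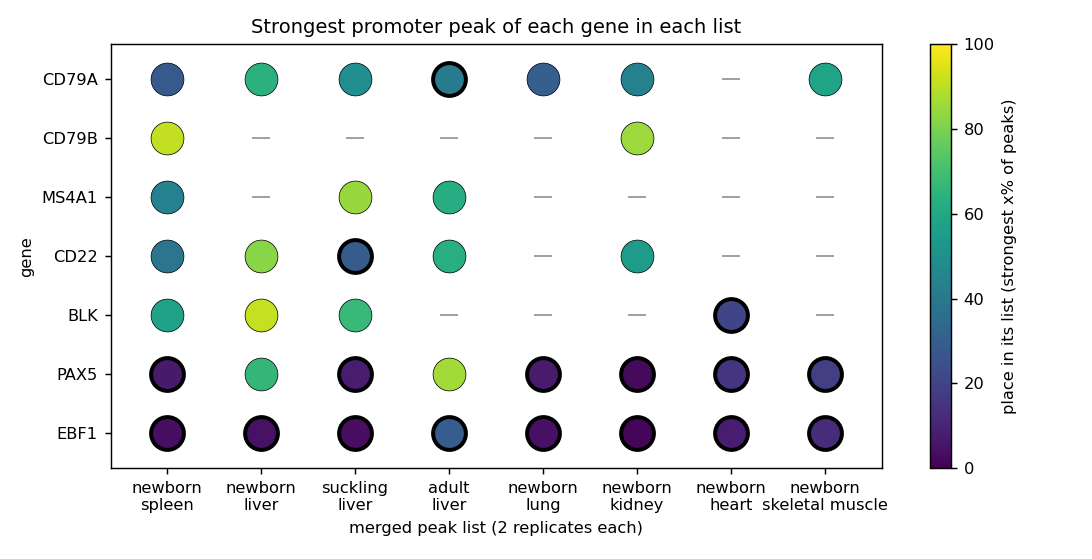
Strongest promoter peak of each gene (rows) in each of the 8 merged lists (columns), coloured by its place in its list (a peak among the strongest few percent is dark). Thick outlines mark an IDR of 0.05 or lower and dashes mark no called promoter peak. Spleen has a circle for all 7 genes, whereas only EBF1 and PAX5 have one in every list.

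At CD79A (chr6:49996116-49999294, minus strand), the start site itself was called open in spleen alone. The peak over the start site (chr6:49999260-49999638) had a −log10 p of 6.08 and 28.9 in replicates 1 and 2, an IDR of 0.417 and a place among the strongest 63.5% of the spleen list. A neighbouring peak inside the gene (chr6:49998521-49999084), centred 0.492 kb from the start site, had values of 14.6 and 13.9, an IDR of 0.295 and a place among the strongest 28.1%. No other list had a peak at either position. The CD79A promoter peaks of 6 other lists all belonged to a region centred 2.36 to 2.42 kb upstream that was called in all 8 lists and only touched the edge of the promoter. The spleen peak of that region (7.88 and 15.9) missed the edge by 11 bases. With a promoter of 1 kb upstream, CD79A had a promoter peak in 1 list, spleen.

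The other regions of the CD79A window lay at ARHGEF1, which encodes a guanine nucleotide exchange factor of blood cells. One of them, at its promoter (chr6:49993169-49993917), was called in all 8 lists, with −log10 p of 66.3 and 111 in spleen (strongest 6.39%), 260 and 160 in newborn liver (strongest 0.119%) and 204 and 280 in kidney (strongest 0.0203%). The strong accessibility of the CD79A window thus sat at its neighbour, and all 8 lists called it at an IDR of 0.05 or lower.

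CD79B (chr12:15052966-15056441, plus strand) had a promoter peak in spleen and kidney alone. The spleen peak (chr12:15052765-15053332) covered the start site with a −log10 p of 4.21 and 14.4, an IDR of 0.661 and a place among the strongest 90.7%. The kidney peak lay inside the gene (5.12 and 4.32, IDR 0.617, strongest 85%). Both were near the bottom of their lists, so CD79B had the weakest spleen promoter peak of the 7 genes. A region 4.4 to 4.53 kb from the nearest start site, past the 3′ end, was called in 7 lists, all but lung, and was stronger in spleen (8.04 and 19.3, strongest 48.2%) than the promoter peak.

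MS4A1 (chr2:11216238-11229060, minus strand) is the gene of the CD20 antigen, and its annotated body is overlapped by that of MS4A4A. Its start site was covered by a peak in spleen alone (chr2:11228830-11229405), with a −log10 p of 8.91 and 24.1, an IDR of 0.107 and a place among the strongest 43.4%. The promoter peaks of suckling liver (4.15 and 5.16, strongest 84.7%) and adult liver (9.62 and 24.8, strongest 61.8%) formed another region 1.43 and 1.64 kb upstream. An intron region was called weakly in spleen (4.49 and 8.06), newborn liver (4.33 and 10.5) and suckling liver (7.19 and 6.66). Lung, kidney, heart and skeletal muscle had no peak anywhere in the MS4A1 window.

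CD22 (chr6:44820593-44834392, plus strand) had a peak over its start site in spleen and at each liver age, and kidney had a promoter peak inside the gene. The spleen list held a peak over the start site (8.47 and 40.8, IDR 0.316, strongest 45.8%) and another in the gene next to it (11.9 and 10.1, IDR 0.389, strongest 38.7%). Suckling liver had the promoter peak with the lowest IDR (11.6 and 16.2, IDR 0.0174, strongest 28.9%), and the peaks of newborn liver (4.4 and 6.56, strongest 82.4%), adult liver (9.6 and 12.6, strongest 62.6%) and kidney (6.72 and 6.39, strongest 55%) were weaker within their lists. Heart and skeletal muscle had no peak in the window.

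The region past the 3′ end of CD22 (chr6:44834557-44835091) held the strongest spleen peak of this gene. That peak had a −log10 p of 15.3 and 44.3, an IDR of 0.0234 and a place among the strongest 25.6%. The region was also called in suckling liver (10.9 and 17.2, IDR 0.0158) and adult liver (21.7 and 32.2, IDR 0.0102), but in no other newborn tissue, newborn liver included. It held the octamer and a kappaB match, as printed above. A region next to it lay at the promoter of FFAR1, which encodes a receptor for long-chain fatty acids, and was called in spleen (7.51 and 20.9), suckling liver (3.89 and 3.74) and lung (6 and 5.16).

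**Figure D2:**
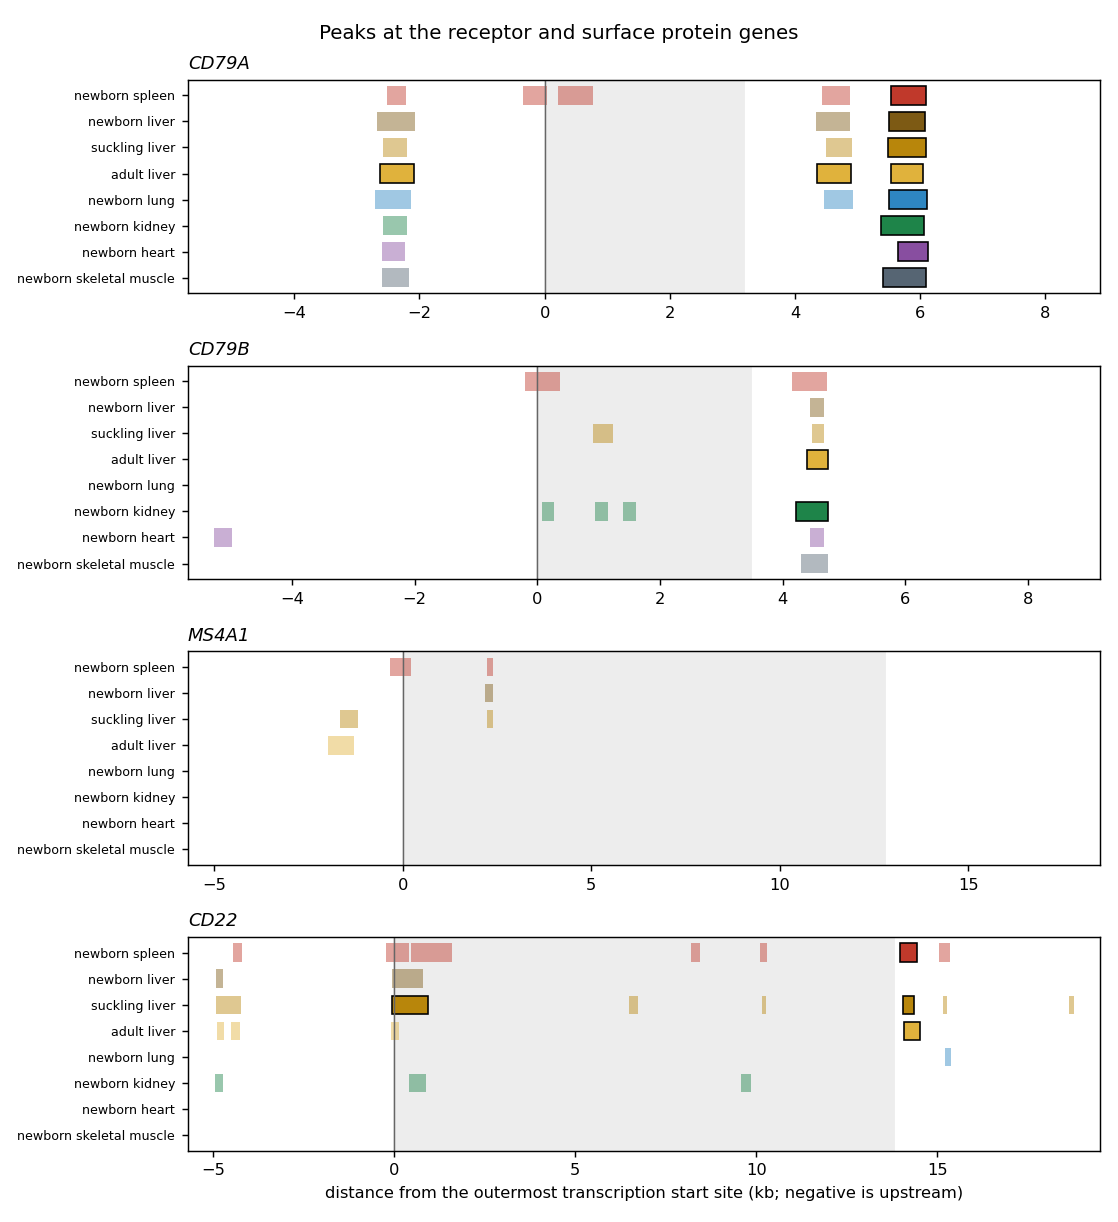
Called peaks by list at CD79A, CD79B, MS4A1 and CD22 against distance from the outermost TSS in kb, with the gene body shaded. Full colour with an outline marks an IDR of 0.05 or lower, pale colour a higher IDR, and narrow peaks are drawn wider than they are so that they can be seen. Only spleen has a peak over the start of CD79A and MS4A1, and the region past the end of CD22 is seen in spleen, suckling liver and adult liver.

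BLK (chr14:14688489-14745946, plus strand) had 15 regions, 9 of them called in spleen. A peak upstream of its outermost start site (chr14:14686091-14686993, centred 1.95 kb from it) was found in spleen alone, with a −log10 p of 6.68 and 14.7, an IDR of 0.214 and a place among the strongest 57.7%. The promoter of an internal start site was open in spleen (13.7 and 5.72), newborn liver (3.82 and 6.31), suckling liver (9.44 and 5.18) and heart (15.4 and 19.8). An adult liver peak of the same region (5.3 and 19.1, IDR 0.479) lay just outside the promoter limits. At this promoter the heart peak had the lowest IDR, 0.0447, and the highest place in its list, among the strongest 20.6%, whereas the spleen peak was among the strongest 68.2%. No BLK peak of spleen reached an IDR of 0.05, and skeletal muscle had no peak in the window. BLK regions called in 5 or more lists lay in its introns, at the internal promoter and at its 3′ end.

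PAX5 (chr1:237574938-237785454, minus strand) had 41 regions, 10 of them called in spleen. Its internal promoter (chr1:237778332-237779273), centred 6.58 to 6.72 kb inside the outermost start site, was called in all 8 lists. The values were 59.9 and 81.7 in spleen (strongest 6.96%), 33.9 and 50.6 in suckling liver (strongest 7.8%), 32.2 and 123 in lung (strongest 7.38%) and 57.5 and 85.3 in kidney (strongest 2.42%). Heart (30.9 and 19.7, strongest 15.6%) and skeletal muscle (35 and 26.2, strongest 18.6%) followed. In newborn liver (3.47 and 44.1) and adult liver (5.24 and 67.3) the replicates were far apart, and the peaks fell among the strongest 96.6% and 86.2%. This CpG-rich promoter of a B cell factor was hence among the stronger peaks of kidney, lung, heart and muscle as well as spleen.

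The outermost start site of PAX5 was covered by a weak peak in spleen alone (chr1:237785201-237785462, 5.24 and 8.95, IDR 0.661). Of the PAX5 regions called in 1 list alone, kidney had 10, spleen 6, suckling liver 5, newborn liver 3 and adult liver 1. Inside the gene, spleen had 5 intron regions that no other list shared. The strongest (chr1:237746214-237747079), 38.8 kb from the outermost start site, had a −log10 p of 14.1 and 51, an IDR of 0.0398 and a place among the strongest 27.9%, and it held EBF, E-box and ETS-IRF matches as printed above. A further spleen peak in an intron (26.7 and 36.9, IDR 0.0123, strongest 14.8%) was shared with the 3 liver lists, kidney and heart.

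The liver lists also called PAX5 regions without a spleen peak. Of the 41 regions, 16 were called in liver lists alone. Over the 7 windows the share of such regions was 26.8%, near the 26.1% of all PCG windows. Of the 10 PAX5 regions with a liver peak at an IDR of 0.05 or lower, 8 had no spleen peak. Over the 7 windows this was so of 20 of 33 such regions (60.6%, interval 43.7 to 75.3) beside 48.3% over all PCG windows. The clearest (chr1:237712981-237713683), an intron region 72.1 to 72.2 kb from the outermost start site, was called in all 3 liver ages and nowhere else. Its values were 346 and 49.1 in newborn (strongest 5.44%), 38.6 and 57.1 in suckling (strongest 6.36%) and 160 and 222 in adult liver (strongest 7.13%). Another intron region (chr1:237732891-237733679) had 222 and 70.6 in newborn (strongest 2.68%), 49.6 and 91.3 in suckling (strongest 4.1%) and 60.5 and 125 in adult liver (strongest 22.3%), with a weaker kidney peak (15.6 and 9.76, strongest 34.2%). Both had an IDR of 0.05 or lower at every liver age.

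EBF1 (chr16:64357999-64753188, plus strand) had 60 regions, 12 of them called in spleen, and was the one member whose promoter peak passed an IDR of 0.05 in all 8 lists. The spleen peak (chr16:64357379-64358285) had a −log10 p of 106 and 165, an IDR of 0.00155 and a place among the strongest 3.85%. The place was 4.65% in newborn liver, 3.63% in suckling liver, 4.07% in lung, 1.37% in kidney, 7.68% in heart, 12.3% in skeletal muscle and 29.2% in adult liver. Adult liver was thus the list in which the EBF1 promoter stood lowest.

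Adult liver nevertheless called more strong EBF1 regions than any other list, 13 of 17 peaks at an IDR of 0.05 or lower, a limit passed by 50.6% of its peaks in all PCG windows. An intronic block 286 to 320 kb from the outermost start site held 7 of its regions, 6 of them at an IDR of 0.05 or lower. These 7 were counted because adult liver called them, so the adult count was fixed by that choice. The counts of the other lists on these 7 are description only, without a share over all PCG windows. Suckling liver called 4 of the 7, of which 2 had an IDR of 0.05 or lower, newborn liver called 3 and kidney 2, all above 0.05, and spleen, lung, heart and skeletal muscle called none of the 7. The same span held 4 regions without an adult liver peak, called in spleen and kidney, in kidney and heart, in kidney alone and in lung alone, all above an IDR of 0.05. The region at 286 kb had −log10 p values of 237 and 154 in adult liver (strongest 7.66%), 26.4 and 49.8 in suckling liver and 212 and 11.2 in newborn liver (strongest 34.9%). A region at 314 kb had 156 and 97.2 in adult liver (strongest 14.7%) and 9.32 and 4.79 in suckling liver (strongest 71.4%). Both regions stood higher in the adult than in the other liver lists, whereas a region at 294 kb stood higher in suckling (20.4 and 30.6, strongest 15.6%) than in adult liver (69.2 and 79.1, strongest 20.2%).

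Kidney gave the largest number of EBF1 peaks, 29, of which 9 had an IDR of 0.05 or lower (35.6% of kidney peaks in all PCG windows did), and 10 EBF1 regions were called in kidney alone. In spleen, 2 of 12 EBF1 peaks passed that limit, at the promoter and in an intron (12.7 and 41.8, IDR 0.0468, strongest 30.8%). The 5 EBF1 regions called in spleen alone were weak, among the strongest 65.8% to 99.6% of the list. The EBF1 window is long, and its spleen regions came to 0.296 per 10 kb, the 31st percentile of all PCGs.

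**Figure D3:**
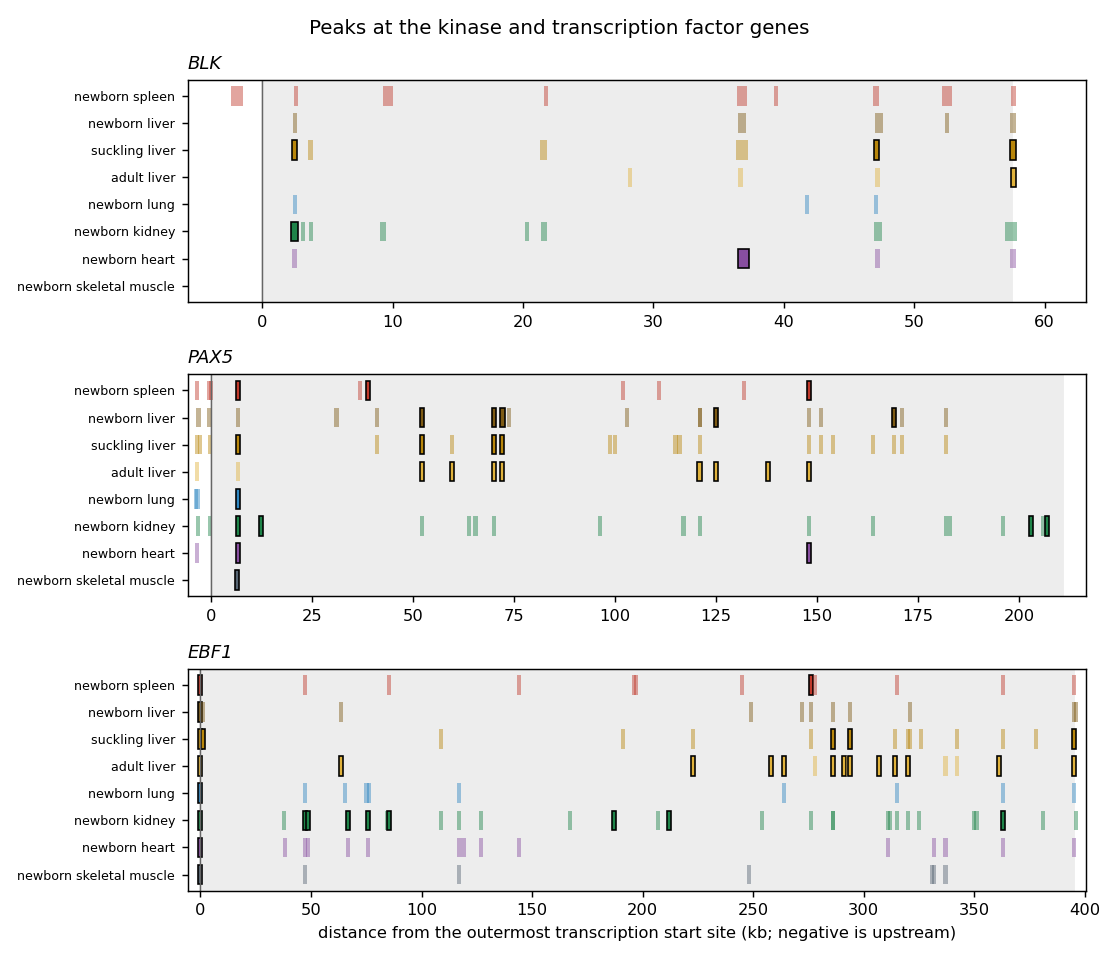
Called peaks by list at BLK, PAX5 and EBF1 against distance from the outermost TSS in kb, drawn as in the plot of the receptor and surface protein genes. The PAX5 internal promoter and the EBF1 promoter are called in all 8 lists, liver peaks of PAX5 lie near 52 and 72 kb, and the EBF1 block of adult liver runs from 286 to 320 kb.

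Across the 7 windows the spleen list had 47 peaks in 46 regions, 5.57 per 10000 peaks of the list, the highest rate of the 8 lists. Kidney followed with 4.95, suckling liver had 4.02, adult liver 3.67, heart 3.57, newborn liver 3.42, lung 2.48 and skeletal muscle 1.93. The density of spleen regions was highest at CD79A, with 3.79 per 10 kb (99.8th percentile of PCGs, its ARHGEF1 regions included), and CD22, with 2.52 (98.1st percentile). It was 1.48 at CD79B (87.3rd percentile), 1.33 at BLK (83.7th percentile), 0.876 at MS4A1 (68.2nd percentile) and 0.453 at PAX5 (42.2nd percentile). Outside PAX5 and EBF1, spleen had 25 peaks, suckling liver 20, kidney 18, adult liver 13, newborn liver 12, heart 8, lung 7 and skeletal muscle 3. These are plain counts from lists of unlike size, from 57126 peaks in skeletal muscle to 141689 in suckling liver, beside 84327 in spleen.

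Of the 46 spleen regions, 19 were called in no other newborn list, 41.3% (95% Wilson interval 28.3 to 55.7, counting error only) beside 22.9% of the spleen regions of all PCG windows. Only 4 were called in all 8 lists, 8.7% beside 28.5%. The 19 regions comprised 5 promoter regions, 12 intron regions, 1 exon region and 1 downstream region. Few spleen peaks of the members were strong, since 7 of 47 (14.9%, interval 7.41 to 27.7) had an IDR of 0.05 or lower. The share was 27.6% of the spleen peaks in all PCG windows, which the interval just reached. Among spleen regions without such a peak, 17 of 39 members' regions were called in no other newborn list (43.6%, interval 29.3 to 59) beside 29.5% over all PCGs. The part of peak strength in the share beyond this split was not tested.

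Overlap with liver was lower than over all PCGs at each age, with 41.3% of the 46 spleen regions also called in newborn liver beside 64.4%, 50% in suckling liver beside 65.4%, and 32.6% in adult liver beside 56.5%. It was 26.1% in lung beside 51.4%, 47.8% in kidney beside 59.6%, 30.4% in heart beside 48.8% and 13% in skeletal muscle beside 37.4%. The interval of the members' share reached the background in kidney (34.1 to 61.9) but lay below it in newborn liver (28.3 to 55.7), suckling liver (36.1 to 63.9), adult liver (20.9 to 47), lung, heart and skeletal muscle. Peaks of 1 gene are not independent, so these intervals are a guide to counting error alone.

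**Figure D4:**
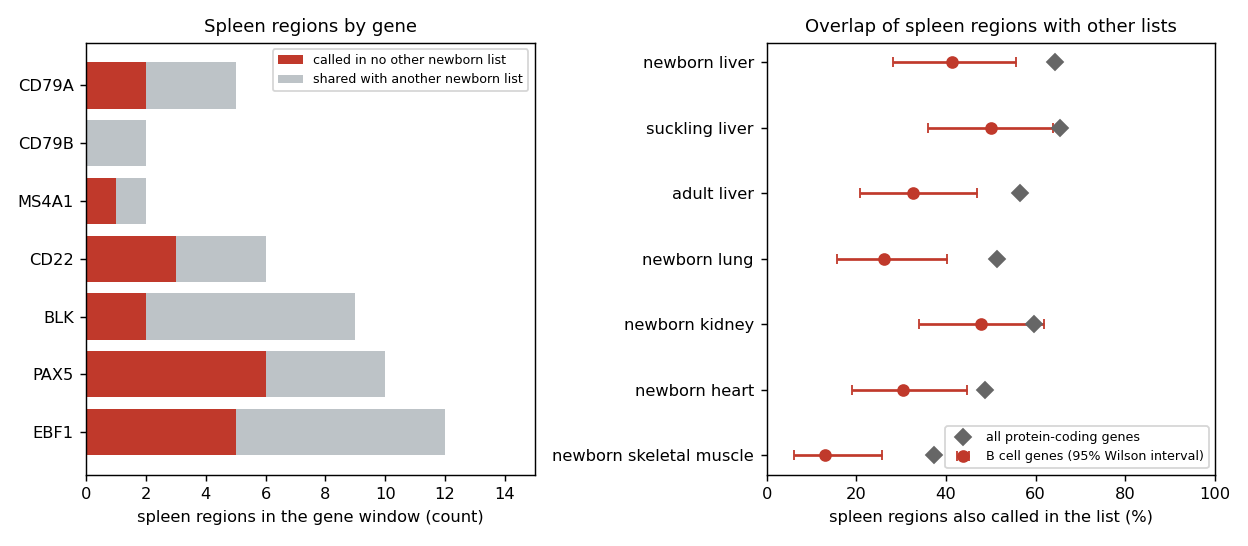
Left, number of spleen regions in the window of each gene, split into those called in no other newborn list and those shared with one. Right, percent of the 46 spleen regions also called in each other list (points, with 95% Wilson intervals as bars) beside the percent over all PCG windows (diamonds). Each of the 7 points lies to the left of its diamond.

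The liver lists changed with age at these genes, and the lists as a whole changed too. Peaks at an IDR of 0.05 or lower numbered 7 of 41 in newborn liver (17.1% beside 20.5% of the list's peaks in all PCG windows), 15 of 57 in suckling liver (26.3% beside 34.8%) and 27 of 40 in adult liver (67.5%, interval 52 to 79.9, beside 50.6%). Of the 27 adult peaks, 13 lay at EBF1 and 8 at PAX5. Regions called in liver lists alone made up 37 of the 138 (26.8%), which is near the 26.1% of all PCG windows, with 16 at PAX5, 17 at EBF1, 2 at CD22, 1 at MS4A1, 1 at BLK and 0 at CD79A and CD79B.

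The spleen list holds only peaks found in both replicates, so the presence of the 47 peaks in both was given, but their strength was unequal. The −log10 p was higher in replicate 2 at 37 of 47 peaks (78.7%), as it was at 79.9% of the spleen peaks in all PCG windows, and the list medians were 8.59 and 16.1. The imbalance at the B cell genes was therefore that of the whole list. In newborn liver the order was opposite, with list medians of 24.9 and 8.64, although the newborn liver peak at the PAX5 internal promoter was higher in replicate 2.

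**Figure D5:**
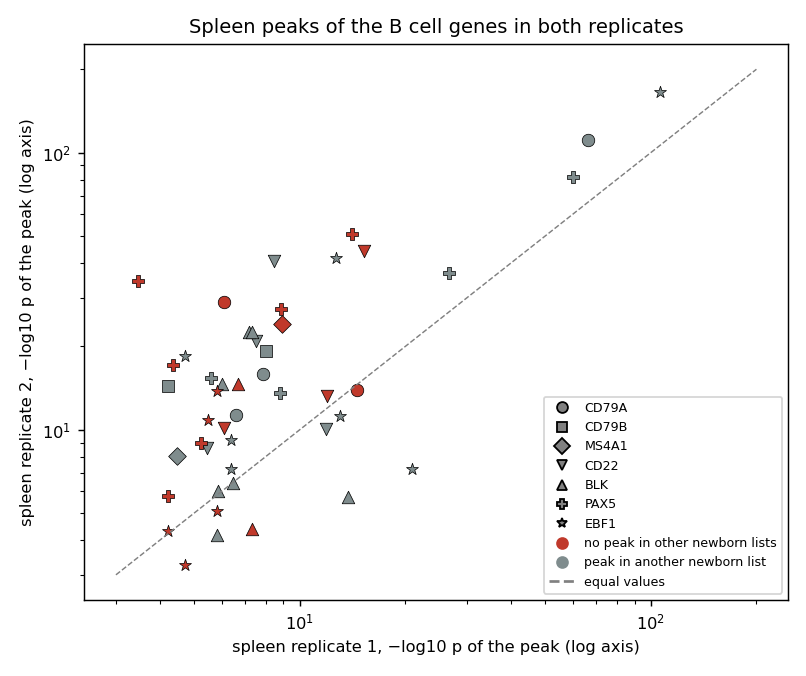
−log10 p of the 47 spleen peaks in replicate 1 and replicate 2, on log axes, with symbols for genes and red for peaks without overlap in the other newborn lists. The EBF1 and PAX5 promoters and the ARHGEF1 promoter in the CD79A window lie at the upper right, and 37 of 47 points lie above the line of equal values.

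Among the motifs, the POU octamer was found within 150 bases of the summit of 6 of 47 spleen peaks (12.8%) beside 1.54% of all spleen peaks on chromosomes. Those 6 peaks were the CD79B promoter, the CD22 peak next to its start site and the one past its 3′ end, the EBF1 promoter, an EBF1 intron peak and a peak past the EBF1 end. The E-box was in 15 peaks (31.9% beside 17.8%), the ETS-IRF motif in 8 (17% beside 10.5%), the EBF motif in 6 (12.8% beside 8.14%), and the kappaB motif in 2 (4.26% beside 1.95%). RUNX (4.26% beside 7.3%), GATA (4.26% beside 4.28%) and SPI1 motifs (2.13% beside 5.86%) were in 2, 2 and 1 peaks. In the liver lists the E-box was in 39% of newborn peaks beside 23.9%, 36.8% of suckling peaks beside 26.6% and 15% of adult peaks beside 22.6%. The octamer was in 3 of 41 newborn liver (7.32% beside 1.21%), 4 of 57 suckling liver (7.02% beside 1.04%) and 4 of 40 adult liver peaks (10% beside 1.39%). The liver peaks with the octamer lay at the EBF1 promoter, an EBF1 intron region of the adult liver block, the EBF1 3′ end and the region past CD22. Of these, only the intron region had no spleen peak, and a match of letters is not a bound site.

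Other genes of the B cell programme were read in the same way. Over all PCGs, 68.9% had a spleen promoter peak, 43% had one at an IDR of 0.05 or lower and 4.4% had one shared with no other newborn list. In a list of receptor signalling and coreceptor genes, all 14 matched genes had a spleen promoter peak, 7 at an IDR of 0.05 or lower, and 4, CD72, FCRLA and LYN among them, had one without overlap in the other newborn lists. FCRLA, which encodes an intracellular Fc receptor-like protein of B cells, had a promoter peak in spleen alone (5.81 and 23). The strongest of this list were VAV1, PIK3AP1, PIK3CD and CD81, with places among the strongest 2.94% to 8.62% and promoter peaks in all 8 lists. Newborn, suckling and adult liver had a promoter peak at 12, 11 and 11 of the 14 genes.

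Of 14 B cell transcription factor genes, all had a spleen promoter peak, 8 at an IDR of 0.05 or lower, led by TCF3, ETS1, FOXO1 and MEF2C (strongest 2.49% to 5.81%), which were called in all 8 lists. Newborn, suckling and adult liver had a promoter peak at 12, 14 and 12 of these 14 genes. BACH2, POU2AF1, POU2F2 and SPIB had a spleen promoter peak without overlap in the other newborn lists. At POU2AF1, the coactivator that binds POU factors on the octamer, this peak (chr9:39144784-39145194) had 15.7 and 38.4 and an IDR of 0.02. Of 9 growth and homing receptor genes, 7 had a spleen promoter peak, led by CD40, CD53, CCR7 and IL7R, and 6, 5 and 6 had a promoter peak in newborn, suckling and adult liver. CCR7, a chemokine receptor for homing to lymphoid organs (13.8 and 28.6, IDR 0.0275), and FCER2 (6.37 and 19.7, IDR 0.331) had a spleen promoter peak without overlap in the other newborn lists.

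Genes of earlier and later stages varied. Of 6 precursor and recombination genes, 3 had a spleen promoter peak, RAG2 (strongest 8.08%, promoter peaks in all 8 lists), LEF1 (strongest 47.8%) and VPREB1, a surrogate light chain of precursor B cells, whose peak was near the bottom of the list (3.78 and 3.51, strongest 98.6%) and in spleen alone. All 6 antigen presentation genes had one at an IDR of 0.05 or lower, led by SLA-DQB1, SLA-DMB, SLA-DQA1 and CD74 (strongest 4.79% to 6.9%), and none was without overlap in the other newborn lists. Of 8 plasma cell genes, 5 had a spleen promoter peak, and MZB1 (17.4 and 28.5, IDR 0.0224) had one without overlap in the other newborn lists. The PRDM1 peak without such overlap (chr1:72309999-72310326, 4.36 and 9.08, IDR 0.661) was weak, and XBP1, PRDM1, MZB1 and CD38 had the highest-ranked promoter peaks of this list. In newborn, suckling and adult liver, promoter peaks were called at 3, 4 and 3 of the precursor and recombination genes. All 6 antigen presentation genes and 4 of the plasma cell genes had one at each liver age.

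Markers of other cell types were counted beside the same 68.9% of PCGs with a spleen promoter peak and 4.4% with one shared with no other newborn list. Of 9 matched T cell genes, all had a spleen promoter peak, with TCF7, CD5, CD3E and CD247 ranked highest (strongest 9.18% to 28.1%). All but TCF7, which had a promoter peak in all 8 lists, had one without overlap in the other newborn lists. None of the 9 had one without overlap in any of the other 7 lists. Promoter peaks were called at 4, 9 and 8 of these genes in newborn, suckling and adult liver. All 10 erythroid genes had a spleen promoter peak at an IDR of 0.05 or lower, SLC4A1, HBB and TAL1 among them (strongest 4.58% to 10.4%), and 9 of the 10 also had one in newborn liver, 5 in suckling liver and 3 in adult liver. Of 10 myeloid genes 7 had one (C1QA, ITGAM, CSF1R and CD14 leading), of 8 endothelial genes 7 (VWF, KDR, ERG and PECAM1) and of 8 stromal genes 8 (TLX1, TCF21 and NKX3-2 among them). The myeloid share was near that of all PCGs, and 7 or 8 endothelial genes had a promoter peak in every list but skeletal muscle. Of 8 hepatocyte genes, only APOA2 had a spleen promoter peak (4.48 and 289, strongest 85.4%), while 7 had one in newborn and 8 in suckling and adult liver. Hepatocyte genes thus had promoter peaks more often in the liver lists than in spleen. The shares of PCGs with one were 73.7%, 75% and 69.8% in newborn, suckling and adult liver. The part of cell proportions in the B cell peaks was not tested.

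The promoter profile was also compared over all PCGs. By mean absolute difference of the rank percentile of the strongest promoter peak over the 8 lists, the PCGs nearest to the members' mean were ZNF608 (9.92 points), LOC110260812 (10 points), COL12A1 (10.4 points), PTPRB (10.6 points) and HSF2BP (11.9 points). The members themselves lay farther from their mean, from 17.5 points for CD22 to 51.7 points for EBF1, since EBF1 and PAX5 stood high in most lists and CD79B and MS4A1 were not called in most of them.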

How the data were processed

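ATAC-seq was performed on 16 libraries, 2 per group. Per the methods and labels, the authors mapped reads to Sscrofa11.1 with Bowtie2, discarded mitochondrial, poorly mapped and duplicated alignments with SAMtools (version 1.3.1), called peaks per replicate with MACS2 and merged replicates with the IDR method at default settings. A correction for the transposase offset is not given in the sources used here, which could move summits slightly. The deposited lists give the −log10 p of each replicate, the smaller of the pair, a score that the authors scaled from the IDR, and the −log10 of the IDR, which was turned back into an IDR. They were not filtered on IDR, so each list holds weak peaks, and a peak found in 1 replicate only is not listed. The lists hold no read counts, library depths were not used here, and a missing peak is a peak that was not called.

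Genes and 47600 distinct transcript starts came from the RefSeq annotation of Sscrofa11.1, with positions counted from 1. Overlap meant 1 bp, regions were peaks of any list joined by overlap, and from 1.25% to 1.7% of a list lay off the chromosomes and was not assigned. Motifs were searched on both strands of 300 bases around summits and upstream of start sites, and overlapping matches were counted once per stretch. Overlap code was tested on simulated peaks. Python 3.11.15, pandas 2.3.3, SciPy 1.17.1 and samtools 1.23.1 were used.

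The members, marker lists and alternatives were chosen with earlier results of these data known. Genes named beside the members were neighbours with a promoter peak in a member window, up to 4 genes of each list with the highest spleen promoter rank, B cell genes with a spleen-only promoter peak and the 5 genes nearest in promoter profile. CR2, CD24, IGLL1 and ZAP70 had no match. Some genes that the rule names are not reported here. No test was run, because presence is given once per pooled list and the replicate values, which depend on depth, exist only for peaks found in both replicates. Alternatives were other promoter and window sizes, a stricter IDR, equal list sizes, a stricter overlap and each replicate alone.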

Additional observations from a re-analysis of the deposited data

How the results depend on the processing

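No paired analysis was possible because the results come from no test: a peak is present or absent once per pooled list. Of 76 recomputed counts and shares, 47 stayed within 1.5 times the main count or within the counting interval and 29 moved. With a promoter of 1 kb upstream, 3 members had a promoter peak in adult liver. With peaks limited to an IDR of 0.05 throughout, 2 members had a spleen promoter peak, 0 had a spleen-only one, 7 spleen regions were left of which 3 were spleen-only and 57.1% also in adult liver, and promoter peaks were left at 1, 3 and 2 members in newborn, suckling and adult liver. With that limit in spleen alone, the counts were 2, 0, 7 and 2, and the overlap with newborn, suckling and adult liver was 71.4%, 85.7% and 71.4%. With the strongest 57126 peaks of each list, the overlap with newborn and suckling liver was 22.6% and 32.3%, and 1, 3 and 2 members had a promoter peak in newborn, suckling and adult liver. With the same number of peaks ranked by 1 replicate (each replicate left out in turn), spleen regions numbered 29 to 30, the overlap was 17.2% to 23.3% with newborn and 31% to 40% with suckling liver, and members with a promoter peak were 1 to 2 in newborn and 2 to 4 in adult liver. The spleen-only promoter peaks thus rest on peaks above an IDR of 0.05. Of 161 values for single genes, 69 moved, and none of 14 under an overlap of 50% of the shorter peak.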
